A study of Homo sapiens with 18 samples.

Results

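The genes described here encode chaperones and folding enzymes of the endoplasmic reticulum (ER), the machinery of ER-associated degradation (ERAD), and the sensors and transcription factors that control both. They are 32 of the 60595 genes that each deposited table lists. They were chosen by gene symbol from what is known of the ATF6 and XBP1 arms of the unfolded protein response. The rule holds no measured value, but the choice was made with earlier results of these data known. By role they are 9 chaperones of the Hsp70 and Hsp90 type with their cofactors, 2 lectin chaperones, 6 disulphide and prolyl isomerases, 3 sensors and transcription factors, 8 ERAD genes, and 4 genes of the translocon and of the COPII coat. All 32 were found in every table, and 31 passed the level filter of each fit. The exception was DERL3, an ERAD gene that was listed at 0 in 14 of 18 libraries and at most at 0.536 FPKM in the others.

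RNA was sequenced from A375, a melanoma cell line with an activating BRAF mutation, to find transcription that depends on the histone demethylase LSD1 (gene KDM1A) and on the AP-1 subunit FOSL1. There were 18 libraries in 9 groups of 2. A group name that starts with P is taken as the parental line and one that starts with R as its derivative resistant to BRAF and MEK inhibitors; the labels spell out neither letter and do not say whether R is 1 clone. The first table held P_DMSO and R_DMSO, labelled as wild type and given vehicle, with P_DT and R_DT, labelled as wild type and given 250 nM dabrafenib (a BRAF inhibitor) and 10 nM trametinib (a MEK inhibitor). The second held the P line with a control hairpin (P_shCtrl) or a hairpin against LSD1 (P_shLSD1). The third held the same pair in the R line (R_shCtrl, R_shLSD1). The fourth held the R line with a hairpin against FOSL1 (R_shFosL1) and no control. Hairpins were brought in by lentivirus, and the labels name no drug for these cells. They give no treatment time, nor do they state whether replicate libraries came from different cultures; p-values therefore measure a spread between libraries that may be technical.

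Proteins that enter the ER are folded by HSPA5 (BiP), by HSP90B1 (GRP94) and by the calreticulin and calnexin lectins, while protein disulphide isomerases form their disulphide bonds. When unfolded proteins accumulate, ATF6 is cut in the Golgi and the kinase and nuclease IRE1 (gene ERN1) splices XBP1 mRNA; both products are transcription factors that raise chaperone and ERAD genes. ERAD draws misfolded proteins out through the SEL1L and SYVN1 ubiquitin ligase complex for destruction by the proteasome. A separate arm, through the kinase PERK (EIF2AK3) and ATF4, slows translation and induces amino acid and stress genes. The values here are gene totals, so they do not tell spliced from unspliced XBP1 mRNA, and ATF6 activation by cleavage is not visible in them.

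Levels are FPKM, fragments per kilobase of transcript scaled to the mapped fragments of the library. A difference is that of the mean log2(FPKM + 1) of the groups, given with its standard error, and it understates the change of genes at low levels. A gene counts as called where limma's Benjamini-Hochberg adjusted p over all tested genes is below 0.05. FPKM summed to 556375 to 814364 per library and 13920 to 15313 genes reached 1 FPKM, with a depth estimated from the steps in the values at 6770000 to 11300000 fragments if fragments are 250 bases long. Mitochondrially encoded mRNA took 7.27% to 16.8% of FPKM. The ERK target DUSP6 fell under the drugs in both lines (-3.16 ± 0.15, adjusted p = 0.00014 in P and -2.01 ± 0.15, adjusted p = 0.0018 in R), and KDM1A fell under its hairpin (-3.08 ± 0.20, adjusted p = 0.016 in P and -2.71 ± 0.10, adjusted p = 0.00094 in R). FOSL1 was at 36.2 and 38.3 FPKM in R_shFosL1 against 109 and 104 FPKM in R_shCtrl of another table. Replicates of P_DMSO differed most: the SD over genes of their log2 difference was 0.715, against 0.424 to 0.493 in the other groups that entered a test, which bears on every comparison with P_DMSO. The melanocyte factor SOX10 stood at 142.6 and 180.3 FPKM in P_DMSO, was listed at 0 in R_DMSO and all R hairpin libraries, and was at 0 and 0.163 FPKM in R_DT. In bulk RNA, fewer cells of a type and less RNA per cell cannot be told apart.

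Together the members took 0.303% to 0.564% of summed FPKM. CALR, HSP90B1, HSPA5, P4HB and PPIB lay above 95.7% of the genes at 1 FPKM or more in every library. ERN1 lay above 2.66% to 51.4% of them and was the lowest of the 31 in every library but the 2 of P_DMSO, where CRELD2 was lowest. In the first table the members' share was 0.369% and 0.303% in P_DMSO, 0.504% and 0.495% in P_DT, 0.56% and 0.564% in R_DMSO, and 0.481% and 0.461% in R_DT. P_DMSO was therefore lowest and R_DMSO highest, with no overlap between any pair of these groups. Of 5 markers of plasma cells, another cell type rich in these chaperones, SDC1 stood at 10.6 to 66.3 FPKM. POU2AF1 reached 1 FPKM in 1 library (R_DT replicate 2), MZB1 and TNFRSF17 in none, and JCHAIN was at 0 in all.

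Promoters of some members hold elements of the unfolded protein response. The rule used no sequence, but it picked genes known from the ATF6 and XBP1 arms. The share of members with such an element is therefore not independent of the choice. RefSeq windows (GRCh38.p14, 250 bases before to 50 bases after a start) were found for 28 of 32 members, with 36 windows in all, and not for DERL1, DERL3, SEC24D and PDIA3. The ER stress element, CCAAT and CCACG with any 9 bases between them, is bound by ATF6 together with NF-Y. It stood on either strand in 27 of 35116 windows of all genes (0.0769%) and in 9 of 36 member windows (25%). Those windows were of CALR, CANX, CRELD2, HSP90B1, HSPA5, PDIA6 and XBP1, and CANX has more than 1 of them. By gene it was 25 of 27305 genes (0.0916%) and 7 of 28 members (25%). The second ER stress element, ATTGG and CCACG with 1 base between them, stood in 0.0541% of all windows and in those of HERPUD1, HYOU1 and SDF2L1. The unfolded protein response element TGACGTGG stood in 0.729% of all windows and in those of HYOU1, where it overlaps the second ER stress element, and TXNDC5. No ERAD, translocon or COPII member held the first element in its window. A match describes letters and is not evidence of binding.

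The stretches below are from members that hold an ER stress element of either form, read 5′ to 3′ on the gene's strand from RefSeq promoters of build GRCh38.p14. They do not stand for all members called below. EDEM2, PDIA4, P4HB, ATF6 and ERN1 were called in comparisons below as well and hold neither form in their windows. Capitals mark both parts of an element. CALR, CRELD2 and SDF2L1 carry it on the strand opposite to the gene, so these parts appear as reverse complements, CGTGG before ATTGG or CCAAT. HSPA5 is read from chr9:125241361-125241439 (minus strand), HSP90B1 from chr12:103930186-103930264 (plus), CALR from chr19:12938359-12938432 (plus), PDIA6 from chr2:10812823-10812901 (minus), CRELD2 from chr22:49918524-49918602 (plus), XBP1 from chr22:28800573-28800651 (minus), HERPUD1 from chr16:56931995-56932065 (plus) and SDF2L1 from chr22:21642084-21642154 (plus).
HSPA5: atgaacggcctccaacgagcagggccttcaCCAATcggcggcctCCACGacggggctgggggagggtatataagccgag
HSP90B1: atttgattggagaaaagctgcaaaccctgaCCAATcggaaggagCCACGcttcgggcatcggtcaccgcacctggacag
CALR: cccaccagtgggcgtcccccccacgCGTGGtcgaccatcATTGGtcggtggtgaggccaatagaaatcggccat
PDIA6: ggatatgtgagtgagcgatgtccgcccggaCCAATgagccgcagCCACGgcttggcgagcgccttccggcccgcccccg
CRELD2: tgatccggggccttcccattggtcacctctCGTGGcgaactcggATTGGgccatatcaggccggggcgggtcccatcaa
XBP1: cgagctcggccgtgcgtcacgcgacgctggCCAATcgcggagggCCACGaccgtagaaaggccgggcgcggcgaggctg
HERPUD1: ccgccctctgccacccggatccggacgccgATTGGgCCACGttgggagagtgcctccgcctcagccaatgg
SDF2L1: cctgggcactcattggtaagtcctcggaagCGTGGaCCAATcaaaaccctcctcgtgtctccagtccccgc

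**Figure D1:**
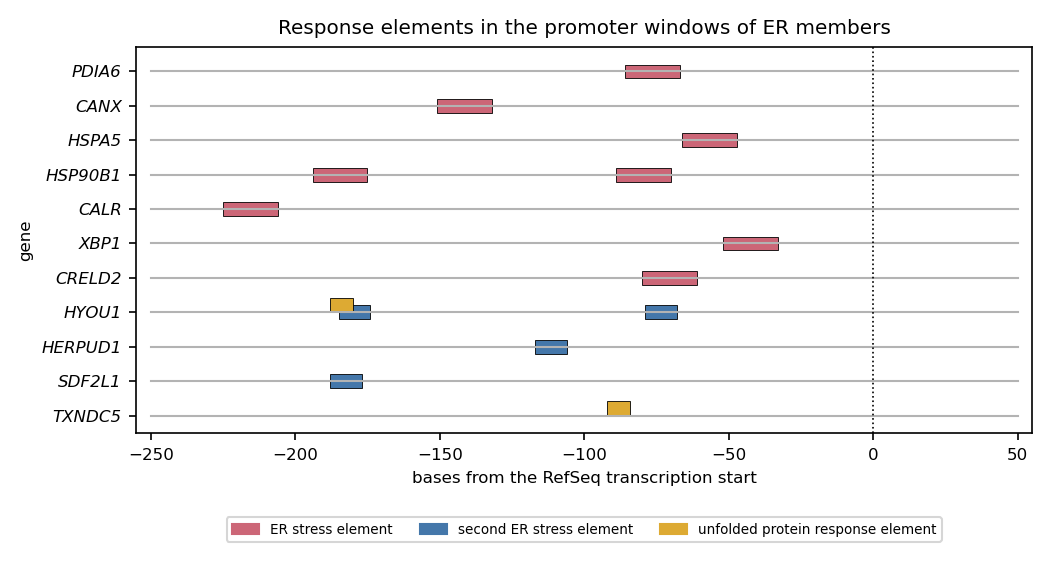
Position of each element in the promoter windows of the 11 members that hold one, in bases from the RefSeq start, with 1 line per gene and 1 box per match. The ER stress elements of PDIA6, HSPA5, CRELD2, XBP1 and 1 of 2 in HSP90B1 begin between bases -89 and -52, and that of CALR lies from base -225 to base -207.

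The first comparison asked how these genes respond to dabrafenib plus trametinib in the P line. In P_DT the lectin chaperone CALR and 4 of 6 isomerases were called higher than in P_DMSO, while all 3 sensors and transcription factors were called lower. For all 6 isomerases both P_DT libraries lay above both P_DMSO libraries, though PDIA6 (0.17) and TXNDC5 (0.20) were not called. Among all tested members 15 lay above in this way and 9 below, and the share of all genes that did so was not counted. Of the 31 tested members, 9 were called higher and 5 lower. Over all 17190 tested genes, 12.8% were called higher and 9.67% lower, and the median difference was 0.17 over the members and 0.11 over all genes. Rescaled so that each library sums to the same total (TPM), 10 members were higher and 3 lower, and the median of all genes moved to 0.22. Of the 3 sensors and transcription factors, ATF6 was not called by limma on that scale (adjusted p = 0.082). Nor was it in a fit of the P_DMSO and P_DT libraries alone (0.085). Mitochondrial mRNA also differed between these groups, at 7.27% and 7.86% in P_DMSO against 9.62% and 10.5% in P_DT. The summed level of 7 melanocytic markers was 156 to 201 FPKM in P_DMSO and 430 to 451 FPKM in P_DT, with 4 of 7 at a group mean of 1 FPKM or more in both and TYR at 0. That of 6 fibroblast markers was 2.88 to 4.02 and 11.5 to 14.7 FPKM, with 1 and 3 of 6 at that mean. The part of these in the differences was not tested.

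CALR (ENSG00000179218, chromosome 19 from 12938578 to 12944489 on hg38), which holds monoglucosylated glycoproteins for folding, was at 153 and 207 FPKM in P_DMSO and 502 and 539.8 FPKM in P_DT. Both treated libraries exceeded both vehicle libraries, a mean 2.89 times as high (1.54 ± 0.16, adjusted p = 0.0016). Its membrane-bound relative CANX was at 172 and 170.3 FPKM in P_DMSO against 155 and 142 FPKM in P_DT and was not called. PDIA3, the isomerase that works with both lectins, was at 79.3 and 76.7 FPKM in P_DMSO and 149 and 142 FPKM in P_DT (0.89 ± 0.11, adjusted p = 0.0029). PDIA4 was at 27 and 36.4 FPKM in P_DMSO and 55 and 64.3 FPKM in P_DT (0.90 ± 0.17, adjusted p = 0.013). The groups did not overlap for either isomerase. CRELD2, a secreted ER stress protein, was at 7.77 and 8.78 FPKM in P_DMSO and 19.4 and 20.7 FPKM in P_DT (1.18 ± 0.25, adjusted p = 0.017). EDEM2, which trims mannose from glycoproteins bound for ERAD, was at 10.4 and 12.1 FPKM in P_DMSO and 20.3 and 22.8 FPKM in P_DT (0.88 ± 0.15, adjusted p = 0.0094). The other members called higher were DNAJC3, P4HB, PPIB and SEC61A1, with differences of 0.66 to 0.86.

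HSPA5 and HSP90B1 did not pass the test. HSPA5 was at 186 and 171 FPKM in P_DMSO and 203 and 215 FPKM in P_DT (0.23 ± 0.11, adjusted p = 0.2). HSP90B1 was at 214 and 167 FPKM in P_DMSO and 243 and 263 FPKM in P_DT (0.41 ± 0.15, adjusted p = 0.097). Treated libraries lay above vehicle libraries for both genes. XBP1 was at 66.7 and 61 FPKM in P_DMSO and 31 and 32.3 FPKM in P_DT (-0.99 ± 0.13, adjusted p = 0.0035). ERN1, which encodes IRE1, was at 7.93 and 11.2 FPKM in P_DMSO and 1.89 and 2.85 FPKM in P_DT (-1.65 ± 0.25, adjusted p = 0.0058). ATF6 was at 34.7 and 28.8 FPKM in P_DMSO and 19.5 and 18 FPKM in P_DT (-0.73 ± 0.15, adjusted p = 0.015). All 3 were lower in both treated libraries than in either vehicle library. HERPUD1, an ER membrane protein of the ERAD ligase complex, was at 72.6 and 67 FPKM in P_DMSO and 32.2 and 38.9 FPKM in P_DT (-0.96 ± 0.15, adjusted p = 0.0059). The fifth member called lower was EDEM1, with a difference of -0.44.

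CALR, PDIA3, P4HB, XBP1 and ERN1 kept their calls when any 1 library was left out. A fit without a P_DMSO library takes its spread from the other groups, so it does not check the wide spread of P_DMSO. Without P_DT replicate 1 or replicate 2, 6 members were called in each case. The adjusted p was then 0.087 and 0.10 for CRELD2, 0.055 and 0.095 for PDIA4, and 0.074 and 0.10 for ATF6. It was 0.052 for HERPUD1 without P_DT replicate 1 and 0.075 for EDEM2 without P_DT replicate 2. DNAJC3, SEC61A1 and EDEM1 also lost their calls without either P_DT library (0.069 to 0.19), as did PPIB, which was lost without P_DMSO replicate 1 as well (0.062).

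**Figure D2:**
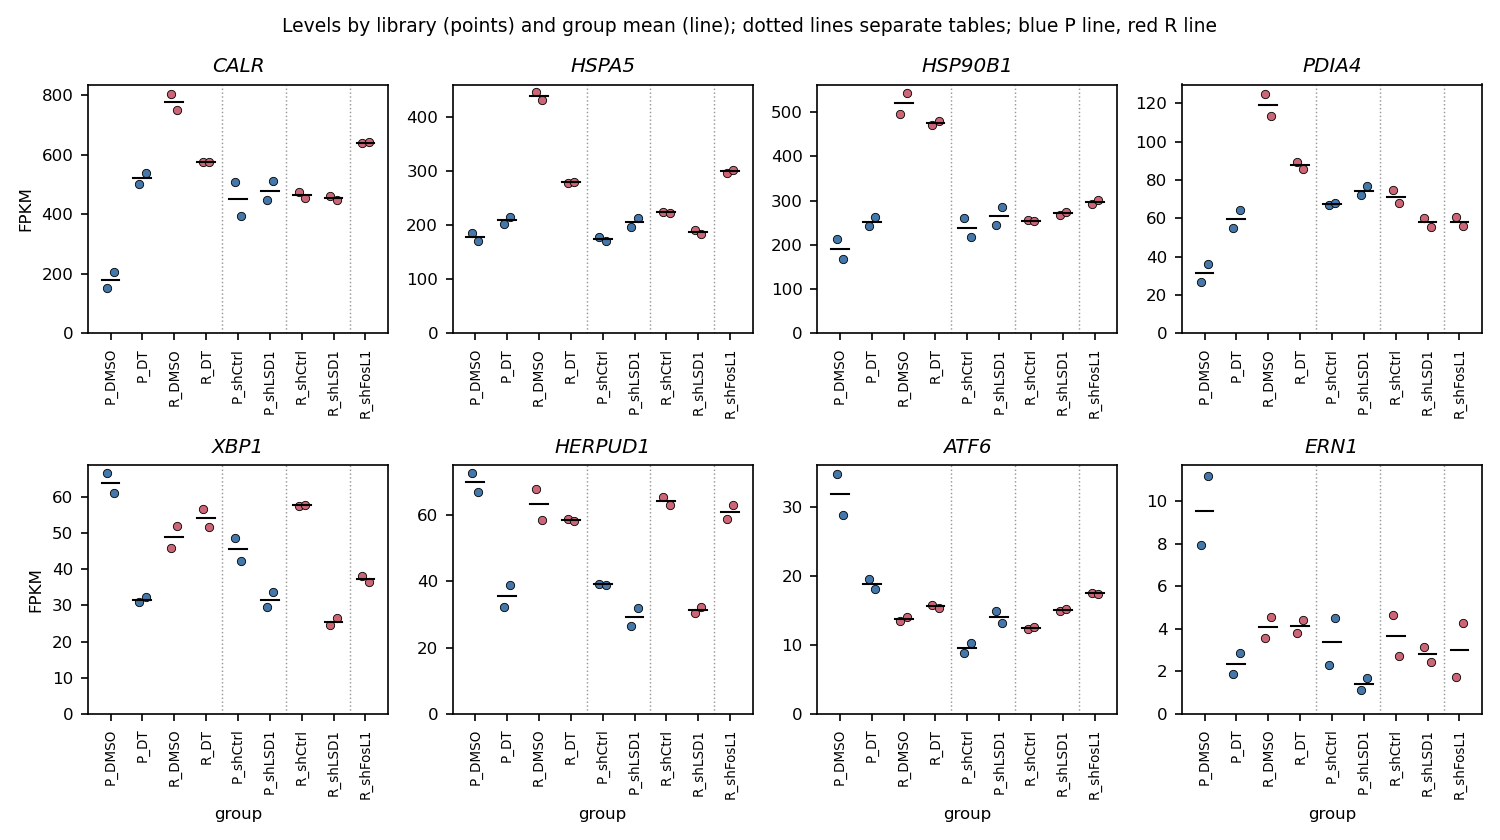
FPKM of 8 members in each of the 18 libraries (points; blue P line, red R line) with the group mean (line), from linear axes that start at 0; dotted lines separate the tables. CALR stood at 153 to 207 FPKM in P_DMSO and 395 FPKM or more in every other library, and XBP1 stood between 24.5 and 33.8 FPKM in P_DT, P_shLSD1 and R_shLSD1.

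In the fit shared by the 8 libraries, the same treatment called few genes in the R line, and members at close to the share of all genes. Of 31 tested members, R_DT held 1 called higher and 1 called lower than R_DMSO (3.23% each). Of all genes 6.48% were called, 3.65% higher and 2.83% lower, and the median difference was -0.02 over the members and -0.03 over all genes. The number called depends on the fit. With the libraries of R_DMSO and R_DT alone, 2506 genes were called, and 1 member was higher and 4 lower. The like fit of P_DMSO and P_DT alone called 1447 genes and 6 members, so the smaller number in R holds for the shared fit only. Mitochondrial mRNA overlapped between these groups (10.2% and 12.4%, and 10.7% and 12.6%). The fibroblast markers summed to 25.7 to 29 FPKM in R_DMSO and 57.1 to 59.1 FPKM in R_DT (3 of 6 in both at a mean of 1 FPKM or more, COL1A2 at 0), the melanocytic markers to 24.9 to 27 and 35.9 to 55.9 FPKM (1 and 2 of 7, TYR at 0) and the endothelial markers to 0.298 to 0.62 and 7.13 to 7.82 FPKM (0 and 1 of 4), and their part was not tested. HSPA5 was at 447 and 432 FPKM in R_DMSO and 279 and 281 FPKM in R_DT (-0.65 ± 0.11, adjusted p = 0.024). PPIB, a prolyl isomerase of the ER, was at 209 and 168 FPKM in R_DMSO and 299 and 329 FPKM in R_DT (0.74 ± 0.16, adjusted p = 0.046). The groups were apart in both genes. Neither call outlasted the loss of any 1 of the 4 libraries, with adjusted p from 0.14 to 0.19 for HSPA5 and from 0.11 to 0.25 for PPIB. After quantile normalization 0 members were called by limma, against 6 at an unadjusted p below 0.05, with adjusted p of 0.056 for HSPA5 and 0.053 for PPIB, and on the TPM scale 2 members were called lower and 0 higher, against 5 and 1 unadjusted. HSP90B1 (497 and 544 FPKM in R_DMSO against 472 and 479.6 FPKM in R_DT, -0.13 ± 0.15, adjusted p = 0.66) was not called. XBP1 was at 45.8 and 52 FPKM in R_DMSO and 56.6 and 51.8 FPKM in R_DT (0.15 ± 0.13, adjusted p = 0.55), and ERN1 at 3.57 and 4.57 FPKM in R_DMSO and 3.83 and 4.41 FPKM in R_DT (0.02 ± 0.25, adjusted p = 0.99). The replicates of the 2 groups overlapped for both. ATF6 was at 13.5 and 14 FPKM in R_DMSO and 15.8 and 15.4 FPKM in R_DT (0.17 ± 0.15, adjusted p = 0.54), apart but not called.

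The difference between the lines in their response to the drugs was tested as an interaction over the 8 libraries of the first table, as the R difference minus the P difference. For 7 of 31 members the R response was lower and for 4 it was higher, against 7.24% and 6.64% of all genes, with a median of -0.21 over the members and -0.16 over all genes. On the TPM scale the counts were 8 and 1, and the median of all genes moved to -0.39. CALR had the largest of the negative differences (-1.97 ± 0.23, adjusted p = 0.0043): it rose in P, as above, and was at 803 and 750.1 FPKM in R_DMSO and 575 and 576 FPKM in R_DT. The R libraries on the drugs lay below those on vehicle, though that difference alone was not called (-0.43 ± 0.16, adjusted p = 0.17). PDIA4 was at 125 and 114 FPKM in R_DMSO and 89.4 and 86 FPKM in R_DT (interaction -1.34 ± 0.24, adjusted p = 0.018). CRELD2 was at 10.6 and 7.46 FPKM in R_DMSO and 5.84 and 9.11 FPKM in R_DT (interaction -1.44 ± 0.35, adjusted p = 0.04). Its R groups overlapped, while those of PDIA4 did not. The interaction was also negative for HSPA5 (-0.88 ± 0.16, adjusted p = 0.018), SEC61A1 (-0.92 ± 0.19, adjusted p = 0.026), the channel subunit of the translocon, and DNAJC3 (-0.90 ± 0.22, adjusted p = 0.038), a cochaperone of HSPA5. P4HB was the seventh member with a negative call.

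The interaction was positive for all 3 sensors and transcription factors called lower in P, none of which was called in R. Its values were 1.67 ± 0.35, adjusted p = 0.027 for ERN1, 1.13 ± 0.19, adjusted p = 0.013 for XBP1 and 0.89 ± 0.21, adjusted p = 0.035 for ATF6, and HERPUD1 was the fourth positive member. HSP90B1 did not pass (-0.54 ± 0.22, adjusted p = 0.14). Only CALR kept this call without each of the 8 libraries in turn, with adjusted p of at most 0.033; without any 1 of the 6 libraries of P_DT, R_DMSO and R_DT, 1 or 2 members were called. On the TPM scale XBP1 (adjusted p = 0.065), ATF6 (0.18) and HERPUD1 (0.15) were no longer called.

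**Figure D3:**
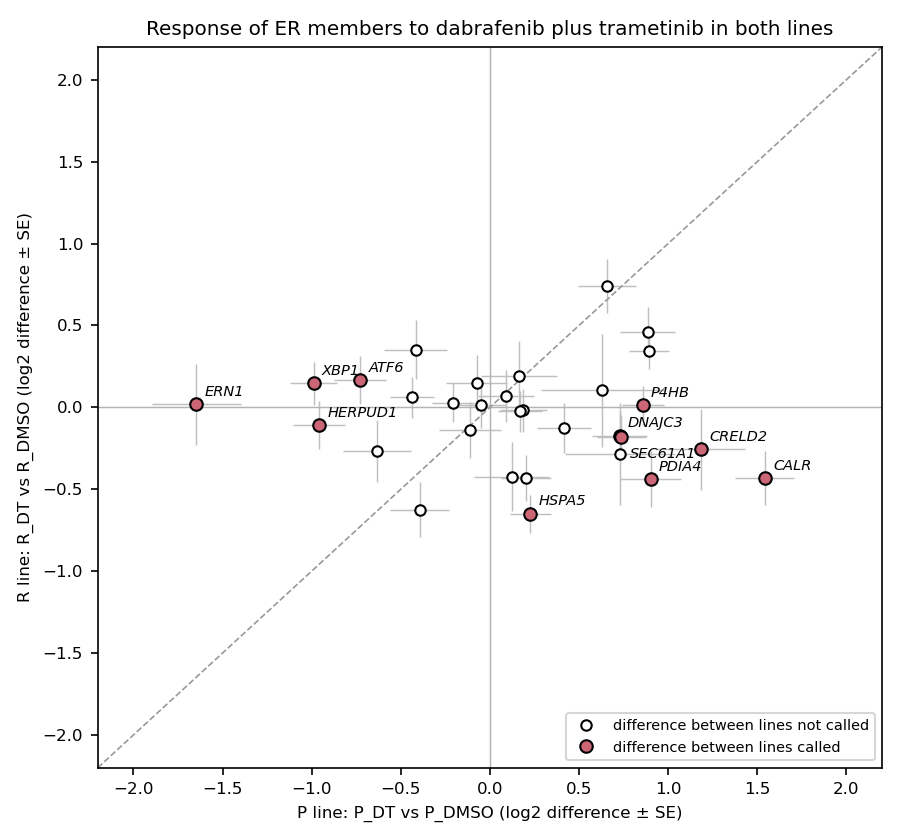
Log2 difference under dabrafenib plus trametinib in the P line (x axis) and in the R line (y axis) for the 31 tested members, with bars of 1 standard error and a dashed line of equal response. Filled points are the 11 members whose responses differed between the lines; CALR lies farthest right at 1.54 in P and -0.43 in R, and ERN1 farthest left at -1.65 in P and 0.02 in R.

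The next comparison set the R line against the P line on vehicle. It shares the P_DMSO libraries with the drug comparison in P, so the values of the 2 comparisons are not independent. Of 31 members, 11 were called higher in R_DMSO and 4 lower, against 16.2% and 11.5% of all genes, and the median was 0.13 over the members and 0.10 over all genes. The higher members were chaperones and isomerases for the most part, with 4 of 9 Hsp70 and Hsp90 type genes and 4 of 6 isomerases called. The melanocytic markers also differed between these groups. In P_DMSO 4 of 7 were at a mean of 1 FPKM or more and in R_DMSO 1 of 7. Their summed level was 156 to 201 FPKM in P_DMSO, most of it SOX10, and 24.9 to 27 FPKM in R_DMSO, most of it MITF. SOX10 and S100B were at 0 in R_DMSO. MITF went the other way, at 4.82 and 7.51 FPKM in P_DMSO and 25.5 and 23.8 FPKM in R_DMSO. The fibroblast markers summed to 2.88 to 4.02 FPKM in P_DMSO (1 of 6) and 25.7 to 29 FPKM in R_DMSO (3 of 6, with COL1A2 at 0 in both groups). Mitochondrial mRNA was at 7.27% and 7.86% in P_DMSO against 10.2% and 12.4% in R_DMSO. The part of these differences was not tested.

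CALR was at 803 and 750.1 FPKM in R_DMSO against 153 and 207 FPKM in P_DMSO, a mean 4.31 times as high (2.12 ± 0.16, adjusted p = 0.00034). HSPA5 (ENSG00000044574, chromosome 9 from 125234853 to 125241330), the ER Hsp70, was at 447 and 432 FPKM in R_DMSO against 186 and 171 FPKM in P_DMSO (1.29 ± 0.11, adjusted p = 0.00052). HSP90B1, the ER Hsp90, was at 497 and 544 FPKM in R_DMSO against 214 and 167 FPKM in P_DMSO (1.45 ± 0.15, adjusted p = 0.001). Every R library lay above every P library for these 3 genes. SDF2L1, a cofactor of HSPA5, was at 70.4 and 49.9 FPKM in R_DMSO against 10.4 and 20.2 FPKM in P_DMSO (1.96 ± 0.31, adjusted p = 0.0051). MANF, a secreted factor kept in the ER by HSPA5, was at 137 and 118 FPKM in R_DMSO against 35.6 and 80.9 FPKM in P_DMSO (1.23 ± 0.35, adjusted p = 0.039). Both were spread widely in P_DMSO, with replicate 1 the lower, but no library crossed into the other group. Among the isomerases, PDIA4 was at 125 and 114 FPKM in R_DMSO against 27 and 36.4 FPKM in P_DMSO (1.89 ± 0.17, adjusted p = 0.00062) and PDIA6 at 221 and 209 FPKM in R_DMSO against 98.3 and 86.3 FPKM in P_DMSO (1.21 ± 0.12, adjusted p = 0.00086). EDEM2 was at 32.9 and 27.9 FPKM in R_DMSO against 10.4 and 12.1 FPKM in P_DMSO (1.36 ± 0.15, adjusted p = 0.0014). PDIA3, P4HB and SEC24D were called higher as well, by 0.72 to 1.20.

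The sensors ATF6 and ERN1 stood lower in R_DMSO. ATF6 was at 13.5 and 14 FPKM in R_DMSO against 34.7 and 28.8 FPKM in P_DMSO (-1.14 ± 0.15, adjusted p = 0.0021), and ERN1 at 3.57 and 4.57 FPKM in R_DMSO against 7.93 and 11.2 FPKM in P_DMSO (-1.05 ± 0.25, adjusted p = 0.022). XBP1 was at 45.8 and 52 FPKM in R_DMSO against 66.7 and 61 FPKM in P_DMSO and did not pass (-0.38 ± 0.13, adjusted p = 0.074). All 3 were lower in both R libraries than in either P library. DNAJB9, a cochaperone of HSPA5, and SEL1L, the adaptor of the ERAD ligase, were called lower too (-0.89 and -0.60). HSPA5, HSP90B1, CALR, PDIA3, PDIA4, PDIA6, P4HB, SDF2L1, EDEM2 and ATF6 kept their calls under all 12 alternative settings. ERN1 was not called without P_DMSO replicate 2 (adjusted p = 0.059), R_DMSO replicate 1 (0.12) or R_DMSO replicate 2 (0.065), and MANF was not called without R_DMSO replicate 1 (0.17) or replicate 2 (0.12). DNAJB9 lost its call without R_DMSO replicate 1 (0.080), SEC24D without R_DMSO replicate 1 (0.077) or replicate 2 (0.12), and SEL1L without any 1 of the 4 libraries (0.056 to 0.20).

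The hairpin controls give another view of P and R cells without a named drug, but from tables made separately, so their levels are set side by side with no test. CALR was at 507 and 395 FPKM in P_shCtrl and 473 and 453 FPKM in R_shCtrl. HSP90B1 was at 260.2 and 218 FPKM in P_shCtrl and 257 and 254 FPKM in R_shCtrl, and PDIA4 at 67.2 and 68.1 FPKM in P_shCtrl and 74.6 and 68.2 FPKM in R_shCtrl. The libraries overlapped for CALR and HSP90B1, and for PDIA4 the lowest R value lay next to the highest P value. HSPA5 was at 179 and 170.5 FPKM in P_shCtrl and 225 and 223 FPKM in R_shCtrl, and EDEM2 at 13.8 and 11.2 FPKM in P_shCtrl and 23.3 and 20.6 FPKM in R_shCtrl, with R above P in both. ATF6 was at 8.77 and 10.2 FPKM in P_shCtrl and 12.3 and 12.6 FPKM in R_shCtrl, with R above P, the opposite order to that on vehicle. The labels do not say which library protocol each table used, so protocol, virus and line cannot be told apart across tables.

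**Figure D4:**
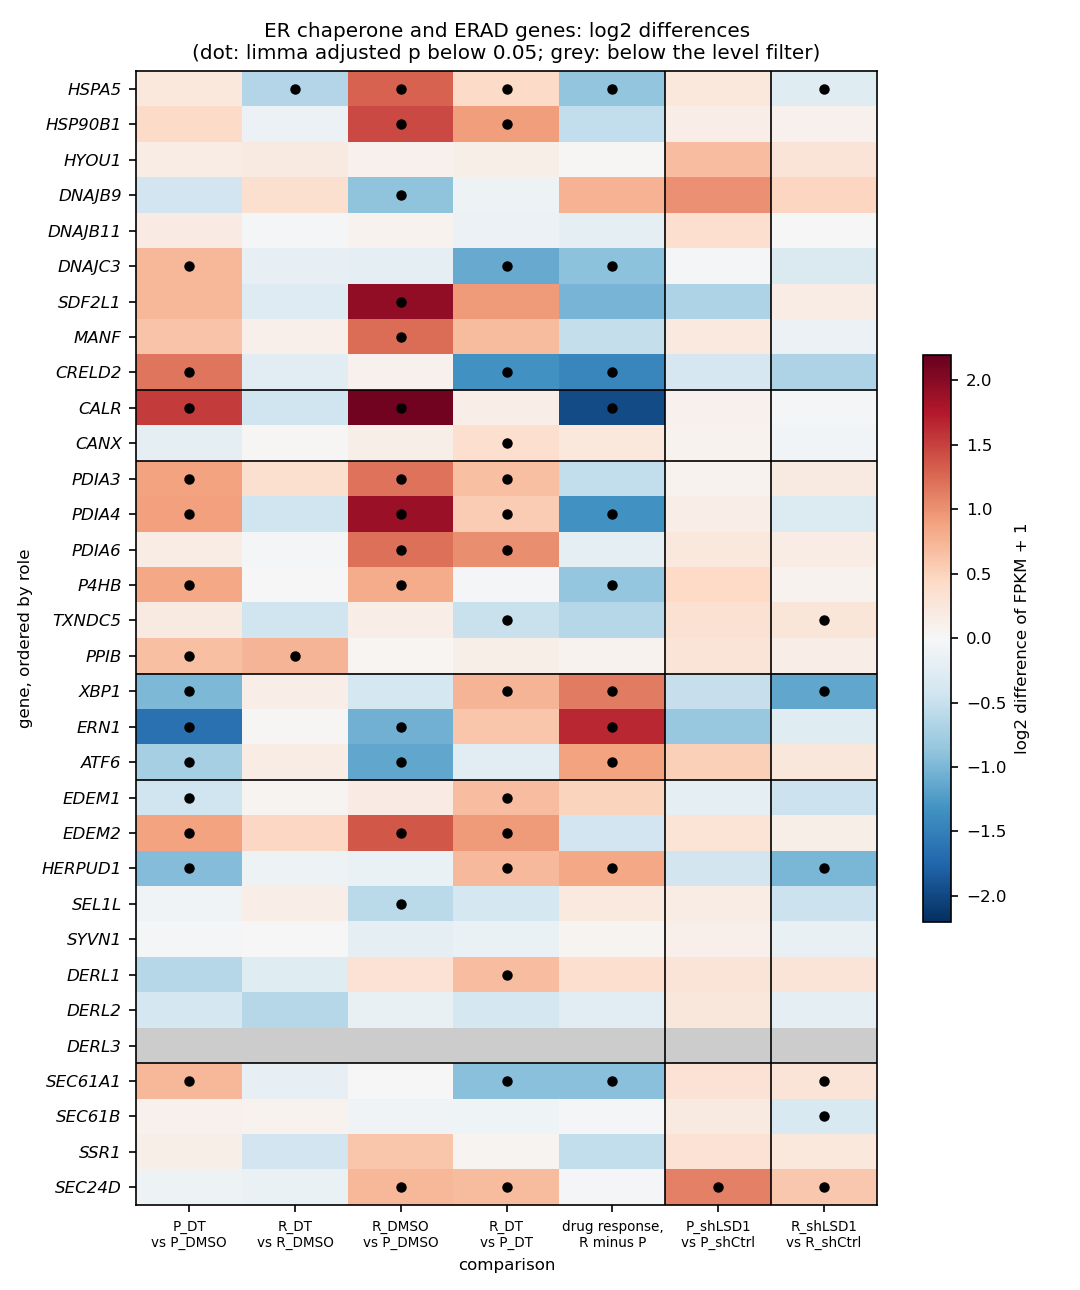
Log2 difference of each of the 32 members (rows, ordered by role) in the 7 comparisons (columns), with red for higher and blue for lower in the group named first, a dot where the limma adjusted p was below 0.05, and grey for DERL3, which was below the level filter. CALR has the deepest red in R_DMSO against P_DMSO (2.12), and XBP1 and HERPUD1 are the deepest blue under the LSD1 hairpin in R (-1.15 and -1.01).

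With both lines on the drugs, 12 of 31 members were called higher in R_DT than in P_DT and 4 lower. Of all genes 37.6% were called, 18.6% higher and 19% lower, with medians of 0.15 over the members and -0.05 over all genes. This split depends on the scaling: on the TPM scale 2 members (PDIA6 and EDEM2) were higher and 8 lower, as the median of all genes moved to -0.39 and that of the members to -0.24, and after quantile normalization 8 were higher and 5 lower. The P_DT libraries had among the lowest FPKM sums and the R_DT libraries among the higher ones, at 556375 and 607151 against 743452 and 776200. Mitochondrial mRNA was at 9.62% and 10.5% in P_DT and 10.7% and 12.6% in R_DT, and the melanocytic markers summed to 430 to 451 against 35.9 to 55.9 FPKM (4 and 2 of 7 at a mean of 1 FPKM or more, TYR at 0), the fibroblast markers to 11.5 to 14.7 against 57.1 to 59.1 FPKM (3 of 6 in both). Of the melanocytic markers, MITF stood higher in R_DT, at 32.5 and 54.2 FPKM against 23.8 and 29.3 FPKM in P_DT. PMEL did too, at 2.15 and 1.04 FPKM against 0.732 and 0.777 FPKM. The part of these differences was not tested. The calls that held under all 12 alternative settings were those of PDIA6, EDEM2, CRELD2, DNAJC3 and SEC61A1.

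PDIA6 stood at 212 and 211 FPKM in R_DT and at 99.8 and 108 FPKM in P_DT (1.02 ± 0.12, adjusted p = 0.0012), and EDEM2 at 40.4 and 43.8 FPKM in R_DT beside 20.3 and 22.8 FPKM in P_DT (0.94 ± 0.15, adjusted p = 0.004). CRELD2 stood at 5.84 and 9.11 FPKM in R_DT and at 19.4 and 20.7 FPKM in P_DT (-1.34 ± 0.25, adjusted p = 0.0062). The R libraries were higher for the first pair of genes and lower for CRELD2, with no overlap. DNAJC3 stood at 9.98 and 10.3 FPKM in R_DT and at 22.9 and 23.1 FPKM in P_DT (-1.11 ± 0.15, adjusted p = 0.0019), and SEC61A1 at 80.8 and 80.9 FPKM in R_DT beside 150.3 and 158 FPKM in P_DT (-0.92 ± 0.14, adjusted p = 0.0026), both lower in R. On the FPKM scale HSP90B1 (0.91 ± 0.15, adjusted p = 0.0043), HSPA5 (0.42 ± 0.11, adjusted p = 0.027), XBP1 (0.76 ± 0.13, adjusted p = 0.0049) and HERPUD1 (0.71 ± 0.15, adjusted p = 0.0099) were called higher in R_DT. On the TPM scale their adjusted p values were 0.093, 0.89, 0.15 and 0.18. ERN1 (0.62 ± 0.25, adjusted p = 0.095) and ATF6 (-0.25 ± 0.15, adjusted p = 0.22) did not pass. CALR stood at 575 and 576 FPKM in R_DT and at 502 and 539.8 FPKM in P_DT and was not called. Without any 1 of these 4 libraries, 9 or 10 members were called; HERPUD1 was not called without P_DT replicate 1 (adjusted p = 0.073), R_DT replicate 1 (0.064) or R_DT replicate 2 (0.061), and HSPA5, DERL1, CANX, PDIA4, SEC24D and TXNDC5 were not called without any 1 of the 4 (0.053 to 0.25).

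The hairpin tables asked which genes depend on LSD1. In the P line, 1 of 31 members was called higher in P_shLSD1 than in P_shCtrl and 0 lower. Of 14729 tested genes 3.42% were called, 2.2% higher and 1.22% lower, with medians of 0.22 over the members and -0.04 over all genes. At an unadjusted p below 0.05, limma gave 4 members higher and 3 lower. Mitochondrial mRNA was at 8.24% and 7.65% in P_shCtrl against 13.3% and 11.4% in P_shLSD1. The melanocytic markers summed to 106 to 114 FPKM in P_shCtrl (3 of 7 at a mean of 1 FPKM or more) and 204 to 218 FPKM in P_shLSD1 (4 of 7), with TYR at 0 in both, and the fibroblast markers to 7.29 to 9.48 FPKM (2 of 6) and 46.1 to 54.2 FPKM (3 of 6), with COL1A2 at 0 in both. Epithelial markers summed to 5.2 to 6.48 and 14.8 to 19.7 FPKM (1 of 5 in both, CDH1 at 0). The part of these in the differences was not tested. The called member was SEC24D, which selects cargo for COPII vesicles that leave the ER. It was at 8.42 and 8.21 FPKM in P_shCtrl and 20 and 18.2 FPKM in P_shLSD1 (1.11 ± 0.17, adjusted p = 0.038). The call was lost without P_shLSD1 replicate 1 (adjusted p = 0.11), without replicate 2 (0.074) and on the TPM scale (0.064). Named after their values were seen, the members closest below the threshold were DNAJB9, at 8.01 and 6.81 FPKM in P_shCtrl and 14.7 and 17.2 FPKM in P_shLSD1 (1.01 ± 0.19, adjusted p = 0.054), and the ER chaperone HYOU1, at 69.2 and 67.4 FPKM in P_shCtrl and 107 and 113 FPKM in P_shLSD1 (0.68 ± 0.15, adjusted p = 0.073).

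The sensors and main chaperones did not pass in the P line. XBP1 was at 48.6 and 42.4 FPKM in P_shCtrl and 29.5 and 33.8 FPKM in P_shLSD1 (-0.51 ± 0.16, adjusted p = 0.13). ERN1 was at 2.3 and 4.5 FPKM in P_shCtrl and 1.15 and 1.67 FPKM in P_shLSD1 (-0.83 ± 0.33, adjusted p = 0.2). ATF6 was at 8.77 and 10.2 FPKM in P_shCtrl and 15 and 13.1 FPKM in P_shLSD1 (0.52 ± 0.18, adjusted p = 0.16). Libraries with the LSD1 hairpin lay below the controls for XBP1 and ERN1 and above them for ATF6. HSPA5 was at 179 and 170.5 FPKM in P_shCtrl and 197 and 214 FPKM in P_shLSD1 (0.23 ± 0.17, adjusted p = 0.46), and HSP90B1 at 260.2 and 218 FPKM in P_shCtrl and 245 and 285 FPKM in P_shLSD1 (0.15 ± 0.20, adjusted p = 0.7). The groups overlapped for HSP90B1 and not for HSPA5.

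In the R line the LSD1 hairpin left XBP1 and HERPUD1 lower. Of 31 members, 3 were called higher and 4 lower in R_shLSD1 than in R_shCtrl, against 9.42% and 12.4% of 14293 tested genes, and the median was 0.01 over the members and -0.05 over all genes. After quantile normalization 7 were higher and 3 lower, and on the TPM scale 5 were higher and 4 lower. XBP1 (ENSG00000100219, chromosome 22 from 28794555 to 28800597) was at 57.4 and 57.9 FPKM in R_shCtrl and 24.5 and 26.4 FPKM in R_shLSD1 (-1.15 ± 0.09, adjusted p = 0.0025). HERPUD1 (ENSG00000051108, chromosome 16 from 56932048 to 56944863) was at 65.4 and 63 FPKM in R_shCtrl and 30.4 and 32.2 FPKM in R_shLSD1 (-1.01 ± 0.08, adjusted p = 0.0029). The mean of the hairpin libraries was 0.441 of the control mean for XBP1 and 0.488 for HERPUD1, and both calls held under all 11 alternative settings. The promoters of both are printed above, with an ER stress element in XBP1 and the second ER stress element in HERPUD1. Mitochondrial mRNA was at 13% and 13.9% in R_shCtrl and 15.5% and 16.8% in R_shLSD1. The melanocytic markers summed to 24.1 to 28.2 FPKM in R_shCtrl (2 of 7 at a mean of 1 FPKM or more) and 37.9 to 41.1 FPKM in R_shLSD1 (1 of 7), with SOX10, TYR and S100B at 0 in both. The part of either was not tested.

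The other calls in R were small. SEC61B (-0.34 ± 0.08, adjusted p = 0.038) and HSPA5 (225 and 223 FPKM in R_shCtrl against 190.5 and 183 FPKM in R_shLSD1, -0.26 ± 0.05, adjusted p = 0.025) were lower. SEC24D was at 15.2 and 15.3 FPKM in R_shCtrl and 24.1 and 22.9 FPKM in R_shLSD1 (0.59 ± 0.11, adjusted p = 0.02), higher as in the P line. SEC61A1 (0.29 ± 0.07, adjusted p = 0.041) and TXNDC5, an isomerase (0.27 ± 0.07, adjusted p = 0.044), were higher too. Libraries of the groups did not overlap for any of these 5 genes. HSPA5, SEC24D, SEC61A1 and TXNDC5 lost their calls without any 1 of the 4 libraries (adjusted p = 0.066 to 0.18), and SEC61B without R_shCtrl replicate 1, R_shLSD1 replicate 1 or R_shLSD1 replicate 2 (0.10 to 0.13). HSP90B1 (257 and 254 FPKM in R_shCtrl against 268 and 274 FPKM in R_shLSD1, 0.09 ± 0.05, adjusted p = 0.25), ATF6 (0.25 ± 0.12, adjusted p = 0.18) and ERN1 (-0.27 ± 0.28, adjusted p = 0.53) did not pass. The difference between the lines in the effect of the LSD1 hairpin was not tested, since the lines sit in separate tables.

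The R_shFosL1 libraries have no control in their table, so only levels are given, beside those of R_shCtrl and with no test. CALR was at 640.0 and 642 FPKM against 473 and 453 FPKM in R_shCtrl, and HSPA5 at 297 and 303 FPKM in R_shFosL1 against 225 and 223 FPKM in R_shCtrl. XBP1 was at 38.2 and 36.4 FPKM in R_shFosL1 against 57.4 and 57.9 FPKM in R_shCtrl. Both chaperones were above the control and XBP1 below it. HSP90B1 was at 293 and 300.4 FPKM, ATF6 at 17.6 and 17.3 FPKM and ERN1 at 1.73 and 4.28 FPKM. HERPUD1 was at 58.7 and 63 FPKM, beside 65.4 and 63 FPKM in R_shCtrl and 30.4 and 32.2 FPKM in R_shLSD1. As shares of the genes at 1 FPKM or more, XBP1 lay above 78.5% and 77.6% of them in R_shFosL1 and 86.6% and 87% in R_shCtrl.

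Members with and without an ER stress element in their promoter window were counted side by side. DERL1, DERL3, SEC24D and PDIA3 have no window and are in neither set, though SEC24D and PDIA3 were called higher in R_DMSO against P_DMSO. Over all tested genes, 16.2% were called higher and 11.5% lower in R_DMSO against P_DMSO, and 18.6% and 19% in R_DT against P_DT. The shares were 12.8% and 9.67% for the drugs in P, and 9.42% and 12.4% under the LSD1 hairpin in R. In R_DMSO against P_DMSO, 5 of the 10 with either element were higher and 0 lower (median 0.67), while 4 of the 18 without were higher and 4 lower (median 0.02). In R_DT against P_DT the counts were 6 higher and 1 lower of 10, and 3 higher and 3 lower of 18, on the FPKM scale. Of these 6, PDIA6 alone kept its call on the TPM scale. HSPA5, HSP90B1, XBP1 and HERPUD1 lost theirs, and CANX changed sign. For the drugs in P the counts were 2 higher and 2 lower of 10, and 6 and 3 of 18. Under the LSD1 hairpin in R, 0 were higher and 3 lower of the 10 (XBP1, HERPUD1 and HSPA5), and 2 higher and 1 lower of the 18. In the interaction, 2 were higher and 3 lower of 10, and 2 higher and 4 lower of 18 (6.64% and 7.24% of all genes). In R_DT against R_DMSO, 0 were higher and 1 lower of 10, and 1 higher and 0 lower of 18 (3.65% and 2.83%). Under the LSD1 hairpin in P, 0 were called in either set (2.2% and 1.22%). These counts describe the members and were not tested.

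Genes of the PERK and ATF4 arm were counted separately, from a list fixed for the comparison. Over all tested genes, 12.8% were called higher and 9.67% lower in P_DT against P_DMSO, and 3.65% and 2.83% in R_DT against R_DMSO. The shares were 16.2% and 11.5% in R_DMSO against P_DMSO, and 6.64% and 7.24% in the interaction. Under the LSD1 hairpin they were 2.2% and 1.22% in P, and 9.42% and 12.4% in R. Of 12, 2 were called higher in P_DT over P_DMSO and 5 lower, with the pseudokinase TRIB3 (-3.20 ± 0.14, adjusted p = 0.00011), the stress factor DDIT3 (CHOP, -2.46 ± 0.21, adjusted p = 0.00074) and asparagine synthetase ASNS (-2.50 ± 0.22, adjusted p = 0.00087) lower. In R_DMSO against P_DMSO 1 was higher and 8 lower, and in R_DT against R_DMSO 1 was higher and 0 lower by limma (7 and 0 at an unadjusted p below 0.05). The LSD1 hairpin left 0 higher and 3 lower in P (2 and 4 unadjusted), and 2 higher and 6 lower of the 11 tested in R, among them the glutathione-degrading enzyme CHAC1 (-2.25 ± 0.25, adjusted p = 0.026 in P and -3.09 ± 0.15, adjusted p = 0.0012 in R). Of 13 chaperones of the cytosol and mitochondria, 6 were higher and 1 lower in P_DT, 0 higher and 4 lower in R_DT against R_DMSO (0 and 7 unadjusted), and 11 higher and 0 lower in R_DMSO against P_DMSO (12 and 1 unadjusted). The last included HSP90AA1, the stress-inducible cytosolic Hsp90 (2.48 ± 0.12, adjusted p = 5.9e-05), and HSPA8, the constitutive cytosolic Hsp70 (1.82 ± 0.15, adjusted p = 0.00047). The interaction of line and drug was positive in 5 and negative in 0 of the PERK and ATF4 genes (6 and 0 unadjusted), and positive in 1 and negative in 7 of these 13 chaperones.

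Further ER lists were counted in the same way. Their counts stand beside shares of all genes of 12.8% higher and 9.67% lower in P_DT against P_DMSO. The shares were 16.2% and 11.5% in R_DMSO against P_DMSO, and 9.42% and 12.4% under the LSD1 hairpin in R. Of 16 further ER folding and glycoprotein quality control genes, 3 were higher and 1 lower both in P_DT against P_DMSO and in R_DMSO against P_DMSO, and likewise under the LSD1 hairpin in R. Of 15 further ERAD genes, 0 were called by limma in P_DT against P_DMSO (1 higher and 1 lower at an unadjusted p below 0.05), and 2 were higher and 3 lower in R_DMSO against P_DMSO. Of 18 translocon, signal peptidase and oligosaccharyl transferase genes, 6 were higher and 1 lower in R_DMSO against P_DMSO, and 4 higher and 3 lower under the LSD1 hairpin in R. Of 9 further COPII genes, 4 were higher and 0 lower in R_DMSO against P_DMSO (5 and 0 unadjusted), and 1 higher and 0 lower under that hairpin (2 and 1 unadjusted). Of 8 genes that act with ATF6 and XBP1, 1 was higher and 0 lower in R_DMSO against P_DMSO (3 and 1 unadjusted), and 3 were lower under the LSD1 hairpin in R: the NF-Y subunit NFYA (-0.82 ± 0.13, adjusted p = 0.015), the RNA ligase RTCB, which joins spliced XBP1 mRNA (-0.52 ± 0.08, adjusted p = 0.014), and ATF6B (-0.59 ± 0.13, adjusted p = 0.031).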

How the data were processed

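RNA-seq of A375 cells was deposited by the authors as 4 tables of FPKM per gene, with 2 libraries in each of 9 groups. Per the submitters' processing notes, CASAVA 1.4, HISAT2 2.1.0 and Cufflinks 2.2.1 were used with build hg38; their settings are not given in the sources used here. The labels describe 2 library protocols without saying which sample had which. The 54 per-sample columns of confidence bounds and status, and the deposited p-values, were not used. Genes whose quantification had failed were left out (1 in the drug table, 4 in the FOSL1 hairpin table, none of them a member), as were 4940 blank rows of the R hairpin table.

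Each table was fitted on its own, since the tables were deposited separately. Tested were genes that reached 1 FPKM in 2 libraries or more of a fit, on log2(FPKM + 1) with limma 3.58.1 (trend and robust settings) in R 4.3.3, with Benjamini-Hochberg adjustment over all tested genes and a threshold of 0.05. The 8 libraries of the drug table shared 1 fit (residual df 4, prior df 2.79), and the hairpin tables had residual df 2 with prior df 3.57 in P and 3.38 in R. The files hold no counts, so no count model was run. The depth was estimated from the steps between low values for transcripts of at least 800 bases, assuming fragments of 250 bases; in many libraries the steps were not clear, so 6770000 to 11300000 fragments is a rough range. At the lowest of these depths, 1 fragment on a transcript of 1 kilobase is worth 0.148 FPKM. Tables and figures used Python 3.11.15, numpy 2.4.6, pandas 2.3.3 and matplotlib 3.10.9, and the fit was tested on simulated data.

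The members and the other gene lists were chosen with earlier results of these data known. Named in each comparison were HSPA5, HSP90B1, XBP1, ATF6 and ERN1, the called members with the 8 largest differences, DUSP6, KDM1A and FOSL1 as checks, and up to 3 genes of each other list with the smallest adjusted p. Gene coordinates are those of GENCODE 29 on hg38, counted from 1. For 10 of 32 members the deposited locus is over 2 times as long as the gene (CRELD2, DERL1, DERL3, DNAJB11, EDEM1, HSP90B1, PDIA3, PDIA6, SEC61A1 and TXNDC5), so their values may share reads with neighbouring or overlapping genes and are less certain. R_shFosL1 has no control in its table and entered no test. The alternatives were other pseudocounts (0.1 and 5), other filters (above 0 FPKM, and 5 FPKM), rescaling to TPM, quantile normalization, the replicate number as a block, the libraries of the 2 groups alone, and leaving out each library in turn.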

Additional observations from a re-analysis of the deposited data

Results flagged for a closer look

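The response to dabrafenib plus trametinib differed between the lines, by the interaction test of limma, for 11 members. As the R difference minus the P difference on the log2 scale, the values were -1.97 for CALR, -1.44 for CRELD2, -1.34 for PDIA4, -0.92 for SEC61A1, -0.90 for DNAJC3, -0.88 for HSPA5 and -0.85 for P4HB. They were 1.67 for ERN1, 1.13 for XBP1, 0.89 for ATF6 and 0.85 for HERPUD1. Of these, CALR alone was called without each of the 8 libraries in turn.

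Under the LSD1 hairpin, 3 members had libraries that lay apart from their controls in opposite directions in the P and R tables. HSPA5 differed by 0.23 in P and -0.26 in R, PDIA4 by 0.14 in P and -0.30 in R, and SDF2L1 by -0.67 in P and 0.17 in R. The difference between the lines was not tested for these genes, and of the 6 values only that of HSPA5 in R was called. Of the 31 tested members, the hairpin libraries lay above the controls for 15 and below them for 4 in P. In R they lay above for 14 and below for 11. The share of all genes that lie apart in opposite directions was not counted, so the 3 members are a description only.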

How the results depend on the processing

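Fitting the libraries of the 2 groups alone gave 1447 genes and 6 members in P_DT against P_DMSO (3861 and 14 in the shared fit), 2506 genes and 5 members in R_DT against R_DMSO (1114 and 2), and 2529 genes in R_DMSO against P_DMSO (4751). With every gene above 0 FPKM tested, 1 member was called in R_DT against R_DMSO, 6 in the interaction (11), 3 in R_shLSD1 with 1609 genes (7 and 3118), and 0 in P_shLSD1 with 0 genes by limma (1 and 504), where 6 members and 3969 genes had an unadjusted p below 0.05. At 5 FPKM or more, P_shLSD1 gave 777 genes and 2 members and R_shLSD1 gave 11 members. A pseudocount of 0.1 left 1 member in R_DT against R_DMSO. Quantile normalization left 0 there (6 unadjusted), and gave 879 genes and 3 members in P_shLSD1. On the TPM scale 10 members were called in R_DT against P_DT (16) and 0 in P_shLSD1 (6 unadjusted). The median of all genes moved under TPM from 0.11 to 0.22 in P_DT against P_DMSO, from -0.03 to -0.14 in R_DT against R_DMSO, from 0.10 to 0.00 in R_DMSO against P_DMSO and from -0.05 to -0.39 in R_DT against P_DT. The cause of these moves was not tested.

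Same-numbered libraries did not deviate together throughout. The correlations were 0.097 between P_DMSO and P_DT, -0.037 between R_DMSO and R_DT, -0.21 between P_DMSO and R_DMSO, and 0.15 between P_DT and R_DT. They were -0.32 in the P hairpin table and 0.03 in the R hairpin table. No pairing by number was seen, but with 2 libraries a group these values cannot exclude one. With the replicate block, R_DT against R_DMSO gave 625 genes and 0 members (7 unadjusted), the interaction 1603 genes and 6 members, and P_shLSD1 945 genes and 2 members. The block gave 12 members in P_DT against P_DMSO, 15 in R_DMSO against P_DMSO, 13 in R_DT against P_DT and 9 in R_shLSD1.

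Leaving out 1 library gave 1179 to 6055 genes and 6 to 18 members in P_DT against P_DMSO, highest without P_DMSO replicate 2 and lowest without a P_DT library. It gave 53 to 100 genes and 0 members in R_DT against R_DMSO (2 to 5 unadjusted), 2266 to 5754 genes and 10 to 16 members in R_DMSO against P_DMSO, and 3551 to 3668 genes (6462) and 9 to 10 members in R_DT against P_DT. For the interaction it gave 646 to 4521 genes (2385) and 1 to 15 members, with the high values without a P_DMSO library. It gave 271 to 950 genes and 0 to 2 members in P_shLSD1, and 966 to 1439 genes and 2 to 3 members in R_shLSD1; in the hairpin tables the lone library left in a group is assumed to vary like the other group. Of the called members, 4 of 14 in P_DT against P_DMSO, 0 of 2 in R_DT against R_DMSO, 10 of 15 in R_DMSO against P_DMSO, 5 of 16 in R_DT against P_DT, 1 of 11 in the interaction, 0 of 1 in P_shLSD1 and 2 of 7 in R_shLSD1 kept their call under every alternative run.

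Among the named members the sign changed for ERN1 in R_DT against R_DMSO (0.02), which was -0.0076 after quantile normalization, -0.10 on the TPM scale, -0.12 without R_DMSO replicate 1 and -0.06 without R_DT replicate 2; leaving out 1 library gave -0.12 to 0.16. It also changed for ERN1 in R_shLSD1 (-0.27), at 0.031 without R_shCtrl replicate 1 and -0.58 to 0.031 over the libraries left out, and for CANX in R_DT against P_DT (0.37), at -0.017 on the TPM scale. None of these values was called after the change. With 2 libraries a group, and 0.148 FPKM for 1 fragment per kilobase at the lowest estimated depth, members at a few FPKM such as ERN1 are the least precise.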
